A study of Mus musculus with 2 samples.

Results

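The genes described here encode the subunits of NF-κB and its inhibitors. They are a list of 10 genes chosen by name, Nfkb1, Nfkb2, Rel, Rela, Relb, Nfkbia, Nfkbib, Nfkbie, Nfkbiz and Tnfaip3, and 9 of them had a listed probe among the 19084 genes of the array. Nfkb1 had none and was not analysed here. Each of the 9 was measured by 1 probe. The samples were RNA of freshly isolated spleen cells of naïve NOD-SCID mice, 6 to 8 weeks old, which were neither cultured nor treated. The cells had been sorted into Z(+) cells and Z(-) cells, where Z stands for binding of Zfra, a small cytosolic protein that acts in TNF signaling, and the sort of these naïve cells is taken to be the sort with labelled Zfra that the study used elsewhere. The number 8 in the design text reads as 8 spleens, and each fraction gave 1 RNA sample measured on 2 technical arrays, whose mean was deposited. Both fractions share the scid mutation in Prkdc, which leaves these mice without mature T and B cells.

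NF-κB proteins bind DNA as dimers. RelA (also called p65), c-Rel and RelB carry a transactivation domain, whereas the products of Nfkb1 and Nfkb2 are made as long precursors that are processed to the DNA-binding subunits p50 and p52. IκB proteins hold the dimers in the cytoplasm until the IκB kinase (IKK) complex marks them for degradation, and many of the inhibitor genes are themselves switched on by NF-κB, which closes a feedback loop. In spleen, this pathway serves survival and activation of lymphocytes and the inflammatory response of macrophages. An array of RNA measures neither the degradation of IκB nor the entry of RelA into the nucleus.

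Promoters of 7 members were found in the RefSeq table of GRCm38.p6, each window running from 250 bases before to 50 bases after a start site. The decamer known as the kappaB consensus, searched on both strands, occurred in a window of 5 of these genes, Rel, Nfkb2, Nfkbia, Nfkbie and Tnfaip3, and in no window of Rela or Nfkbib. It occurred in 7 of the 10 windows of the members, some of which belong to 1 gene, and in 8.46% of all 32851 windows. Some windows of Nfkb2 overlap and hold the same match, which was counted in each. The looser pattern GGGNNNNNCC, which contains the consensus, occurred in 50.8% of all 32851 windows. A match is a stretch of letters and not a site that was shown to be bound. The windows below are shown because Rel had the largest difference between the fractions, Nfkbia and Tnfaip3 are inhibitors that hardly differed, and Nfkb2 lay in between. They are written 5′ to 3′ along the gene's strand, and the capitals mark the matches, which overlap where a stretch fits at neighbouring bases.
Rel, chr11:23770920-23771219, minus strand: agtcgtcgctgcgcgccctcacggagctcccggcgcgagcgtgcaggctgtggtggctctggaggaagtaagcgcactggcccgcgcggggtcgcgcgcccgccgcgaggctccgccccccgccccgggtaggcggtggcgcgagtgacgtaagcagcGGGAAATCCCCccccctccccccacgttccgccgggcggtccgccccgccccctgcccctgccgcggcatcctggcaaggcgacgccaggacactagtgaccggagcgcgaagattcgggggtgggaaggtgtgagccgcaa
Nfkb2, chr19:46304487-46304786, plus strand: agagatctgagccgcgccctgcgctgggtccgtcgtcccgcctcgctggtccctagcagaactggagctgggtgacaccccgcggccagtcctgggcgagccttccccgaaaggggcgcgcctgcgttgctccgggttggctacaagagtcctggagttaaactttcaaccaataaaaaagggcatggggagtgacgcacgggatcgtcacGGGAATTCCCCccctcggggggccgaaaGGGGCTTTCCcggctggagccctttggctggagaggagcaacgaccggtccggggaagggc
Nfkbia, chr12:55492598-55492897, minus strand: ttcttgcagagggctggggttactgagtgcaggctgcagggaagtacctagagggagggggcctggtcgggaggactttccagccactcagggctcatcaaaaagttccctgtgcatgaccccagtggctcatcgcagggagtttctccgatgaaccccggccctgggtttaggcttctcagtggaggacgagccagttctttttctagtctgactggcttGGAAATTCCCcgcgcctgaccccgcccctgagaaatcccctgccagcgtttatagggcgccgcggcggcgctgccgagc
Tnfaip3, chr10:19015361-19015660, minus strand: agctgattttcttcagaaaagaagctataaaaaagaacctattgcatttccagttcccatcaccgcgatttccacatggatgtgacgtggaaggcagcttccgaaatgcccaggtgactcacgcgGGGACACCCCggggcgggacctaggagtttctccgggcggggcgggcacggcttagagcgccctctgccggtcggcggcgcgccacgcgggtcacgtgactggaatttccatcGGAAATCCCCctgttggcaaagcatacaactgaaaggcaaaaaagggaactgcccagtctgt
In Rel the match GGGAAATCCC began 92 bases before the start site, and it reads the same pattern on both strands. In Nfkbia the match GGAAATTCCC began 29 bases before it, on the opposite strand. Tnfaip3 held GGAAATCCCC at 12 bases before the start site and another match further out.

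The whole table sets the scale for the members. With 1 sample per fraction no difference carries a test. A difference of 2-fold or more upward in Z(+) was found in 2.44% of all genes, and one downward in 6.27%. The brighter genes are the 9542 whose mean log2 intensity reached the median of the array (an intensity of 121), and all 9 measured members belong to them. Their shares were 2.12% upward and 6.14% downward. The deposited values can be split into their technical arrays below an intensity of 2000. Where several splits of a value were possible, only one within 1.5-fold was accepted, so a wider gap could not be found there. For probes with intensities between 400 and 1000, the arrays lay within 1.12-fold for 95% of probes in Z(-) and within 1.17-fold in Z(+), and for dimmer probes between 100 and 400, the brightness of Nfkbib and of Rel in Z(-), within 1.13-fold and 1.30-fold. Different probes of 1 gene were farther apart. In 364 genes that had exactly a pair of probes, both at least as bright as the dimmest member, the SD of the gap between the log2 differences of the pair was 0.55. The median size of that gap, regardless of sign, was smaller at 0.20.

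None of the 9 members was at least 2-fold apart between the fractions. Among the brighter genes 2.12% were past 2-fold upward and 6.14% downward, so for 9 genes this count is near the background. The median log2 difference over the members, Z(+) minus Z(-), was 0.05, beside 0.00 over the brighter genes. The members ranged from -0.21 for Nfkbib to 0.79 for Rel, with 5 above 0 and 4 below. Within 1.2-fold lay 6 members, as did 47.8% of the brighter genes, and the remaining 3, Rel, Relb and Nfkbiz, were all higher in Z(+). Only Rel was past 1.5-fold, a size that 7.65% of the brighter genes reached upward.

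**Figure D1:**
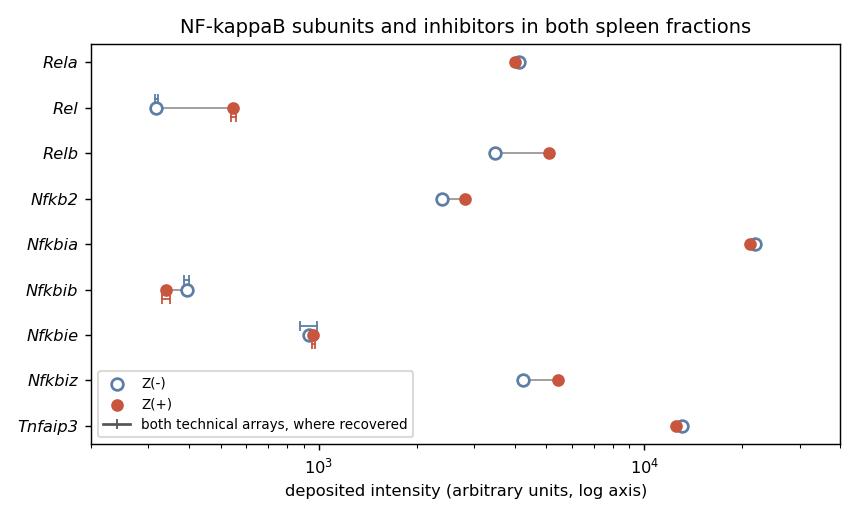
Deposited intensity (log axis) of the 9 measured members in Z(-) (open circles) and Z(+) (filled circles), 1 sample each, with short bars joining the 2 technical arrays of the 3 members for which they were recovered. The circles of Rel, at 317 and 546, are farthest apart, and those of Rela, Nfkbia, Nfkbie and Tnfaip3 nearly coincide.

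Among the subunits with a transactivation domain, Rel and Relb were higher in Z(+) and Rela was not. Rel encodes c-Rel, the subunit best known from lymphocytes. Its intensity was 317 in Z(-) and 546 in Z(+), a 1.72-fold difference. Z(-) gave 313 and 321 on its technical arrays, whereas Z(+) gave 536 and 556, so the arrays did not overlap, and any pairing of an array of one fraction with an array of the other gave a log2 difference between 0.74 and 0.83. Of the brighter genes, 3.93% had a difference at least as high. The log2 difference of Rel, 0.79, is larger than the spread between technical arrays. It rests on 1 probe, however, and the SD of 0.55 between paired probes is not an upper limit of their gap.

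Relb encodes RelB, the partner of p52 in the noncanonical pathway, which is known for its part in dendritic cells and in the architecture of the spleen. Relb was measured at 3468 in Z(-) against 5090 in Z(+), 1.47-fold higher, and 8.48% of the brighter genes had a difference at least as high. Rela, which encodes p65, had 4111 and 4004, a log2 difference of -0.04 that turned to 0.01 both when each sample was centred on its median and after quantile normalization. The differences of Rel and Relb thus exceeded that of Rela by 0.82 and 0.59 on the log2 scale. For Relb, the gap of 0.59 to Rela is close to the SD of 0.55 between paired probes. Its own log2 difference of 0.55 is of the same size, but that SD is of a gap within a pair of probes and not the error of 1 probe. The probes of Relb and Rela were too bright for a split into technical arrays, as were 6 of the 9 members in all, so their hybridization error is not known. For probes between 1000 and 2000, the brightest that were split, the arrays lay within 1.10-fold for 95% of probes in either fraction.

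Nfkb2, which encodes the precursor p100 of p52, was measured at 2382 in Z(-) against 2816 in Z(+), or 1.18-fold. A difference at least as high was found in 26.1% of the brighter genes. Whether the precursor was processed cannot be read from RNA. For the subunits, then, the sizes were largest for Rel, followed by Relb and Nfkb2, and all of these lie under the 2-fold size used here.

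**Figure D2:**
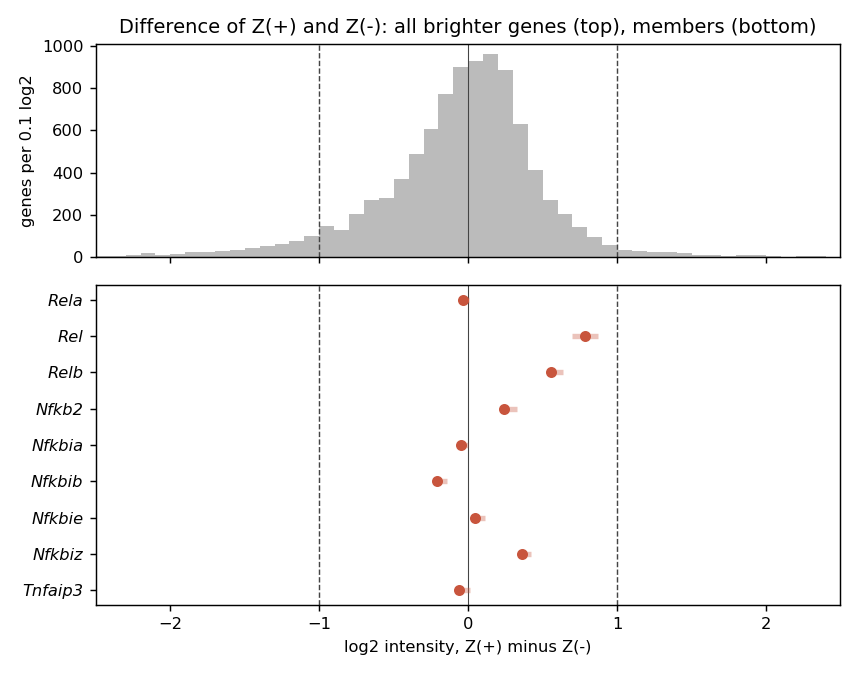
Upper panel, the number of brighter genes per 0.1 of log2 difference, Z(+) minus Z(-), within 2.5 on either side. Lower panel, the difference of each member as a point, with a band over the 3 other scalings, a pseudocount of 50 and the brightest probe, and dashed lines at 2-fold. Every member's band lies inside the dashed lines, and that of Rel, from 0.70 to 0.87, lies farthest from 0.

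The classical inhibitors were close to equal in both fractions. Nfkbia encodes IκBα, the inhibitor that NF-κB induces most quickly in its own feedback loop. Its intensity of 21785 in Z(-) compared with 21042 in Z(+), 1.04-fold lower in the latter. Nfkbie, which encodes IκBε, had 932 and 963. The technical arrays of Z(-) gave 876 and 989, those of Z(+) gave 954 and 973, so the arrays of Z(-) enclosed those of Z(+), and the difference was within the hybridization spread. Nfkbib, which encodes IκBβ, had 393 and 339, which is 1.16-fold lower in Z(+). Here the arrays gave 385 and 401 against 330 and 348. These arrays did not overlap, and every pairing of them gave a log2 difference between -0.28 and -0.14. The 1.16-fold difference of means lies between the spreads of single arrays at this brightness, 1.13-fold in Z(-) and 1.30-fold in Z(+). Of the brighter genes, 31.5% had a difference at least as low.

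Nfkbiz encodes IκBζ, an atypical nuclear member of the IκB family that acts with p50 at inflammatory genes rather than holding dimers in the cytoplasm. Nfkbiz was measured at 4226 in Z(-) against 5435 in Z(+), 1.29-fold higher, and 16.7% of the brighter genes had a difference at least as high. Tnfaip3 encodes A20, an enzyme that edits ubiquitin chains and shuts off signaling from TNF and Toll-like receptors. It had 13069 and 12525, a log2 difference of -0.06 that turned to 0.01 after quantile normalization. The inhibitors thus ranged from -0.21 for Nfkbib to 0.36 for Nfkbiz on the log2 scale. Regardless of sign, both values are smaller than the SD of 0.55 between paired probes and above the median gap of 0.20. That SD is of a gap within a pair of probes and not the error of 1 probe.

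Of the genes upstream of the members, 55 of the 60 listed were measured, with 4 of them past 2-fold upward in Z(+) and 1 past it downward, beside 2.44% and 6.27% of all genes. Their median log2 difference was 0.10, and over all genes it was 0.03. Chuk, Traf3, Irak4 and Ripk1 were among those without a listed probe. The kinase that starts the noncanonical pathway had the largest difference among the brighter ones. Map3k14, which encodes this kinase (NIK), was measured at 193 in Z(-) against 809 in Z(+), 4.18-fold higher, and the technical arrays of the fractions lay at 193 and 194 against 799 and 819. NIK feeds the processing of p100, the product of Nfkb2, toward dimers with RelB.

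Tnfrsf13c, the BAFF receptor of B cells, was dim and 1.85-fold lower in Z(+), at 31.5 and 17.0. Tnfrsf11a, the receptor RANK, was 1.77-fold higher at 160 and 284. Birc3 and Birc2 encode the ubiquitin ligases that keep NIK low, and had log2 differences of 0.38 and -0.25. Traf2, another part of that ligase complex, was 2.05-fold higher but dim, at 41.5 and 84.9. Cd40 was measured by a pair of probes that disagreed, at 5.51 and 17.5 for one and 192 and 234 for the other.

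Of the IKK complex, 2 genes were measured and both were within 2-fold. Ikbkb, the kinase subunit that marks IκB, had 13093 in Z(-) and 14105 in Z(+) on one probe and 2043 and 2429 on the other. Ikbkg, the regulatory subunit NEMO, was dim at 77.5 and 75.0. All 3 IKK-related genes were above 0, with Ikbke, an inducible kinase of this family, at 9579 and 16616, or 1.73-fold, while Tbk1 had a log2 difference of 0.08. The atypical IκB genes Bcl3 and Nfkbid had 2851 and 3082 in the former and 5862 and 5106 in the latter. All 13 measured receptor adaptors and genes of the TAK1 complex were within 2-fold, with a median of -0.03, although Ticam1 lay at the edge with a mean of -0.99 over probes that differed (-1.77 and -0.21).

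Antigen receptor signaling reaches IKK through BCL10 and MALT1 proteins. Of 6 measured genes of this group, Prkcq, a kinase of T and NK cells upstream of the complex, had 470 in Z(-) against 146, 3.21-fold lower in Z(+), and 5 were within 2-fold, among them Malt1 at a log2 difference of 0.59. Of 13 negative regulators, 11 were within 2-fold. Itch, a ubiquitin ligase that works with A20, was 2.69-fold higher in Z(+) at 1164 and 3126. Tnip3, which binds A20, was 4.94-fold higher but dim at 20.1 and 99.4, and its technical arrays in Z(-) gave 8.91 and 31.3. Cyld, a deubiquitinase, had 789 and 656, and Tnip1, another A20 partner, had 6156 and 6104. Itch and Map3k14 were thus the upstream genes past 2-fold upward that belong to the brighter genes.

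**Figure D3:**
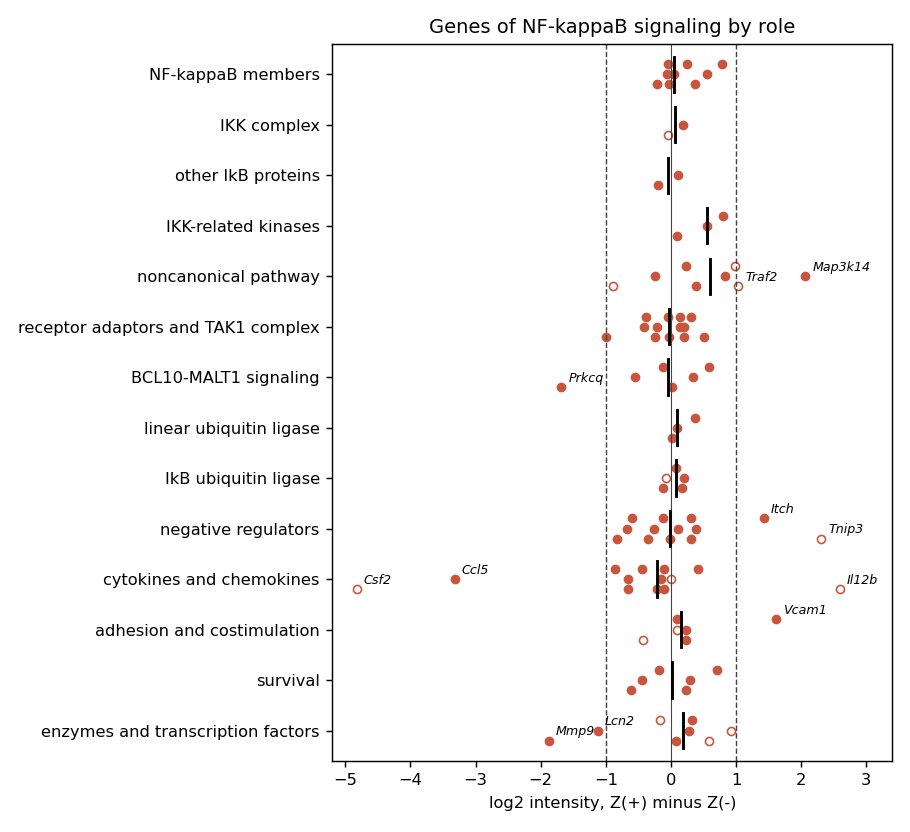
Log2 difference, Z(+) minus Z(-), of each measured gene in the pathway lists and in the NF-κB members, with filled points for the brighter genes, open points for dimmer ones, black bars for list medians and dashed lines at 2-fold. Genes past 2-fold are named, and none lies among the members.

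Well-known NF-κB target genes went both ways. Of 33 measured out of 35 listed, 2 were past 2-fold upward in Z(+) and 4 past it downward, with a median log2 difference of -0.10, beside 2.44% and 6.27% of all genes. The inflammatory cytokines Tnf and Il1b were within 2-fold. Tnf had 1255 in Z(-) and 1676 in Z(+), with technical arrays of 1253 and 1258 against 1674 and 1677. Il1b, had 50370 and 46526, 1.08-fold lower, where the brightest probe of the array read 65528. Icam1, an adhesion molecule, had 9638 and 11308.

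Vcam1, an adhesion molecule that is also a marker of red pulp macrophages, was 3.05-fold higher in Z(+) at 2282 and 6964. Ccl5, a chemokine of NK and T cells, had 22398 and 2238, a log2 difference of -3.32. Mmp9 and Lcn2, both known from neutrophil granules, were 3.68-fold lower at 19317 and 5256 and 2.18-fold lower at 51123 and 23488. Csf2, a growth factor of myeloid cells, had 327 in Z(-) and was dim in Z(+) at 11.5. Il12b was dim, with technical arrays of 2.97 and 3.03 in Z(-) against 0.968 and 35.2 in Z(+), so that its arrays overlapped. Other targets, such as the chemokine Cxcl2 and the survival genes Cflar and Xiap, were within 2-fold.

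The median size of the log2 difference, regardless of sign, was 0.212 over the members. Several lists of cell type markers had a larger one, and those of B cells and monocytes did not, at 0.167 and 0.209. With the sign kept, the medians of B cells and monocytes were -0.13 and -0.12, beside 0.05 over the members. In bulk RNA, fewer cells of a type and less RNA per cell cannot be told apart. Of 12 NK cell markers, 10 were past 2-fold downward in Z(+). The summed intensity of the list, to which Gzma adds most, was 57738 in Z(-) against 4267 in Z(+). In that list Eomes went the other way, at 661 in Z(-) and 898 in Z(+), or 1.36-fold higher. All 5 measured markers of basophils and mast cells had a lower intensity in Z(+), with sums of 30575 and 1501. Of 11 macrophage markers, 7 were at least 2-fold higher and none lower, with sums of 74848 and 113112, to which Csf1r and Cd68 add most. Of 6 neutrophil markers, 4 were at least 2-fold lower, with sums of 73854 and 49617 that S100a9 dominates at 56286 and 45654 and a median log2 difference of -1.84, and of 6 T cell markers 4 were, with sums of 12409 and 1980. The 4 measured monocyte markers were within 2-fold, with sums of 39272 and 39394. For dendritic cells, all 5 markers had a lower intensity in Z(+), with sums of 1336 and 581. No measured marker of these lists was at 0, but Ncr1, which defines NK cells, read 5.50 and 5.52 and S100a8, a neutrophil gene, 16.5 and 18.1. Of the 5 measured B cell genes, Ms4a1 and Pax5 were near the floor in both fractions, whereas Cd22 had 4478 and 4100, Cd79b 1230 and 1306 and Cd79a 202 and 226. Cd3d, a T cell gene, had 9971 and 1128. The part of these shifts in the differences of Rel, Relb, Nfkbiz, Map3k14 and the targets was not tested.

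**Figure D4:**
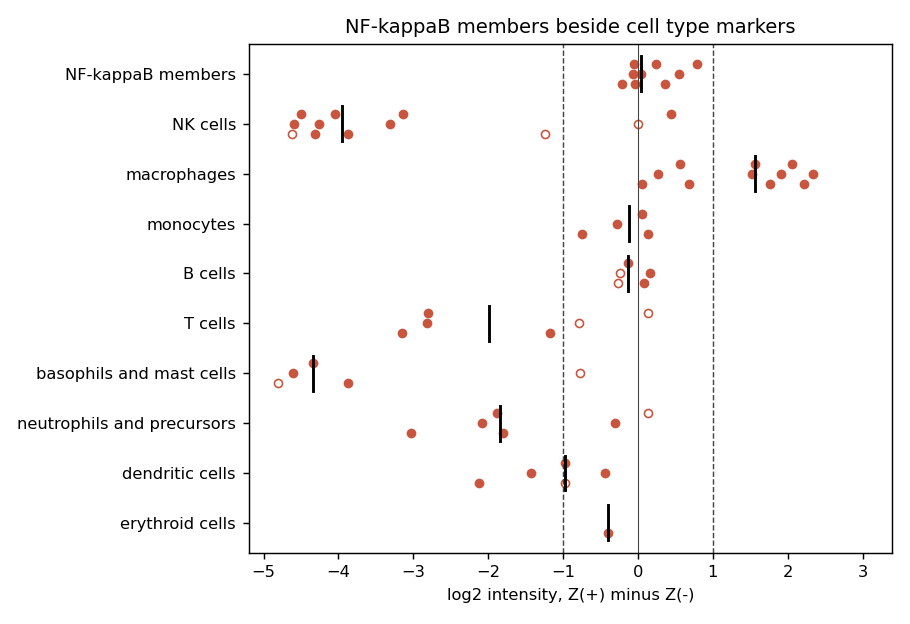
Log2 difference, Z(+) minus Z(-), of the 9 measured members and of cell type markers, with filled points for the brighter genes, open points for dimmer ones, black bars for list medians and dashed lines at 2-fold. The members lie between -0.21 and 0.79, whereas the medians were -3.96 for NK cells, -4.34 for basophils and mast cells and 1.57 for macrophages.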

How the data were processed

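The authors deposited 1 linear intensity per probe and sample, the mean of 2 technical arrays hybridised with Cy5-labelled amplified RNA. How the scans were background-corrected and normalized is not stated in the labels or the methods used here. Values under 1 were raised to 1 before log2 was taken, several probes of a gene were averaged, and the difference was Z(+) minus Z(-), with 2-fold as the size called. The platform's annotation gave 21876 of 26423 probes 1 symbol, of which 21825 matched RefSeq by gene ID. Technical arrays were recovered below an intensity of 2000 by seeking the pair of whole numbers that gives the deposited mean with the factors of the arrays, 1.01 and 0.990 for Z(-) cells, 1.03 and 0.968 for Z(+) cells. This search was tested on simulated data. Where several pairs were possible, a pair within 1.5-fold was taken if it was the only one. A split was found for 99.8% of the values in Z(-) and 99.7% in Z(+). The technical arrays are not replicates of the sort, and the number of arrays limits the precision.

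The members and gene lists were chosen with earlier results of these data known. The text names all members, upstream or target genes past 2-fold and at or above the median brightness, and Chuk, Ikbkb, Ikbkg, Bcl3, Nfkbid, Map3k14, Traf3, Cyld, Tnip1, Tnf, Il1b and Icam1. Any other pathway gene was picked with its value in view. The alternatives were median centring, quantile normalization, loess with a span of 0.3, a pseudocount of 50, the brightest probe, a filter on dim genes, a size of 1.5-fold and single technical arrays. Computation used statsmodels 0.14.6, pandas 2.3.3, numpy 2.4.6 and matplotlib 3.10.9 under Python 3.11.15.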

Additional observations from a re-analysis of the deposited data

How the results depend on the processing

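No member reached 2-fold under any alternative tried, and with 1.5-fold as the size called 1 member, Rel, was higher and 0 were lower. The limit used for a moved log2 value, 0.06, was the technical spread of a log2 difference at intensities from 400 to 1000. Probes between 100 and 400 spread more widely, and for the 6 brighter members the spread is not known. Counts and medians that moved, by more than 1.5 times or by more than 0.06, were as follows. After quantile normalization the median log2 difference was 0.11 over the members, 0.18 over the upstream genes and 0.00 over the targets. The median over the brighter genes also rose, from 0.003 to 0.075 with quantile normalization and to 0.047 with median centring. Part of the shifts under these scalings is thus shared by the brighter genes. With a pseudocount of 50 the median over the targets was -0.023 and 1 target was at least 2-fold higher. Restricted to genes at or above the median brightness, 2 upstream genes and 1 target were at least 2-fold higher. At 1.5-fold, 8 upstream genes were higher and 6 lower, and 5 targets were higher and 8 lower. Single members moved by more than 0.06 in 11 cases. Among them were Rel to 0.87, Relb to 0.64, Nfkb2 to 0.33 and Nfkbib to -0.14 after quantile normalization and Rel to 0.70 with the pseudocount. Rela and Tnfaip3 took both signs over the scalings, and Nfkbie did so between pairings of technical arrays, from -0.05 to 0.15. No paired analysis was possible because each fraction had 1 sample and the numbers in the titles name technical arrays.

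Neither the mice nor the sorting has a replicate. Hybridization error is known for 3 members and not for the 6 brighter ones. Each member rests on 1 probe.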

Other observations

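Other families of signal-dependent transcription factors, chosen after the values of the NF-κB genes were seen, were also measured. Of 19 measured STAT, IRF and NFAT genes, 18 were within 2-fold, with a median log2 difference of 0.04. Over all genes, 2.44% were past 2-fold upward and 6.27% downward, so this count is near the background. Stat5a, a factor downstream of cytokine receptors, was the exception at 155 in Z(-) and 429 in Z(+), while its close relative Stat5b had 1085 and 1441. Irf8, a factor of monocytes and dendritic cells, had 4240 and 3097, and Irf5, known from macrophages, had 14611 and 17941. Nfatc1 was measured by 3 probes with log2 differences of 0.15, 0.27 and 1.30, and why these differ was not tested.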
